A study of Mus musculus with 6 samples.

Results

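The gp130 family of cytokines and their receptors was followed in primary mouse pancreatic stellate cells (PSCs) kept with tumor organoids under normoxia (21% O2) or hypoxia (1% O2). The members were 10 genes chosen by name, out of 55426 features measured, by matching the deposited Ensembl identifiers to GENCODE release M21. They comprised 5 ligands (Il6, Lif, Il11, Clcf1 and Osm) and 5 receptor subunits (Il6st, Il6ra, Il11ra1, Lifr and Osmr). All 10 were found, and all 10 were among the 16207 genes that passed the filter on low counts.

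PSCs are fibroblast precursors of the pancreas and were isolated here from adult wild-type C57BL/6 mice of both sexes and used as early-passage primary lines. In both conditions they were seeded in Matrigel in a transwell insert above organoids of mT3, a mouse pancreatic ductal adenocarcinoma (PDAC) line, in the same well. RNA was taken after 48 h from 3 samples at 21% O2 and 3 samples at 1% O2, and by the labels the conditions differed only in oxygen. Neither PSCs cultured without organoids nor the organoids themselves are among the samples, so every value below is from PSC cultures kept with organoids. Immune cell markers were also detected in these samples and are given below. The sources used here do not say whether the 3 samples of a condition came from separate PSC lines, and p-values therefore measure the spread between these samples, which may be technical.

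Cytokines of this family share a signalling subunit, gp130 (encoded by Il6st), which has no kinase of its own and works through bound JAK kinases that phosphorylate STAT3. IL6 and IL11 first bind a ligand-specific receptor (Il6ra, Il11ra1) and then a pair of gp130 chains, while LIF signals through gp130 paired with LIFR, and OSM through gp130 paired with OSMR. CLCF1 uses CNTFR together with LIFR and gp130. Since gp130 is made by nearly every cell, the specific subunits set which cytokine a cell can answer. In pancreatic tumors, fibroblasts that make IL6 and LIF are known as inflammatory cancer-associated fibroblasts (iCAFs). The question of the comparison was how the ligands changed at 1% O2 against the level of their receptors in the same samples.

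The genes lie on 8 chromosomes of GRCm38, and some of them are neighbors. Lif (chr11:4257557-4272514, plus strand) and Osm (chr11:4236420-4241026, plus strand) are 16530 bases apart with 0 protein-coding genes between them. Lifr (chr15:7090614-7197489, plus strand) and Osmr (chr15:6813577-6874969, minus strand) are 215644 bases apart, also with 0 coding genes between them. Il6 is at chr5:30013114-30019981 on the plus strand, Il11 at chr7:4772373-4782859 on the minus strand and Clcf1 at chr19:4214238-4223490 on the plus strand. Il6st is at chr13:112464070-112510086 on the plus strand, Il6ra at chr3:89864059-89913196 on the minus strand and Il11ra1 at chr4:41699989-41769474 on the plus strand.

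Promoters of the members that moved most are shown because ligands and receptors that changed together or in opposite directions can be compared by the letters around their starts. RefSeq promoter sequences of GRCm38.p6 covered 8 of the 10 members in 11 windows, each of 250 bases before to 50 bases after a transcription start. Clcf1 and Osm had no entry. The first 270 bases of a window, up to 20 bases past the start and so into the first exon, are printed 5′ to 3′ on the strand of the gene. Capitals mark letters that match 1 of 5 searched motifs on either strand.
Il6 (chr5:30012864-30013133, plus strand): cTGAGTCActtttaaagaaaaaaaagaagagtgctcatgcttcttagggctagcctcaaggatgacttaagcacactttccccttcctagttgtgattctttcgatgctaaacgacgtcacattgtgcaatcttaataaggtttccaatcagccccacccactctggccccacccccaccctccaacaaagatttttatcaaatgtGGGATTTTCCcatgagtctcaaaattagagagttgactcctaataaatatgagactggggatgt
Lif (chr11:4257318-4257587, plus strand): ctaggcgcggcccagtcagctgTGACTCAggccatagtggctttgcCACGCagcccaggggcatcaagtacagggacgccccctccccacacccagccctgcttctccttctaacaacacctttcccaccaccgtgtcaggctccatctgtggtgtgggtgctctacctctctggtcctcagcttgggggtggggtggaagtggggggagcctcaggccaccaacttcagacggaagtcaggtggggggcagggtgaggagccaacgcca
Il11, second start (chr7:4778122-4778391, minus strand): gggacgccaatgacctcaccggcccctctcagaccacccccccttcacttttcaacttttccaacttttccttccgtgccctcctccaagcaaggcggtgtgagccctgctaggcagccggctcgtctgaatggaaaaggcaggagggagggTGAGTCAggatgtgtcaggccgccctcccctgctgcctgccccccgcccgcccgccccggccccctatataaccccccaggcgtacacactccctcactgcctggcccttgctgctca
Osmr (chr15:6874294-6874563, minus strand): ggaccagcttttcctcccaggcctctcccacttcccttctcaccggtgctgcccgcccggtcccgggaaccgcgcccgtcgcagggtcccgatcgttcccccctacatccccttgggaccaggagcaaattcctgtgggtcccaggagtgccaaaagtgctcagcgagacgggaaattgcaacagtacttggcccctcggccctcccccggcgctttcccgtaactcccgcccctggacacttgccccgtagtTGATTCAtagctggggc
Lifr, first start (chr15:7129322-7129591, plus strand): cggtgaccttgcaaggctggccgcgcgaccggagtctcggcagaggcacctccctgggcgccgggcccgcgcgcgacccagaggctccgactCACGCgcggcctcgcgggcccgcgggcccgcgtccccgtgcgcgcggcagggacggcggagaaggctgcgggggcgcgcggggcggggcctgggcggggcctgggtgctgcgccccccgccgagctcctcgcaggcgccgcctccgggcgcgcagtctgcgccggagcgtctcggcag

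The motifs searched were the cores of the hypoxia response element (ACGTG and GCGTG), the AP-1 site (TGANTCA), the STAT site (TTCNNNGAA) and the kappa B consensus, and they were chosen after the changes of the members were known. Positions are those of the first base, with the start itself at 1 and the base before it at -1. The AP-1 letters were present in the windows of Il6 (TGAGTCA at -249), Lif (TGACTCA at -228), the second start of Il11 (TGAGTCA at -98) and Osmr (TGATTCA at 4). Over 32817 RefSeq windows of the same length, 7.81% held the AP-1 letters. The kappa B consensus was present, among these windows, only in Il6 (GGGATTTTCC at -44) and in 4.5% of all windows.

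Hypoxia response element letters were present in Lif and Osmr, which rose, in Lifr, which fell, and in Il6ra, which was not called. They were in neither the window of Il6 nor the windows of Il11, which also rose. GCGTG was read on the minus strand, as CACGC, in Lif at -204, in Osmr at 36, beyond the printed stretch, and in the first start of Lifr at -158. The window of Il6ra held CACGTG, which is ACGTG on both strands, with its first base at -24, and CACGC at 16. Of all windows, 19.6% held ACGTG, 32.4% held GCGTG and 43.8% held at least 1 of them. The STAT letters, found in 8.29% of all windows, were in 0 of the 11 windows of the members. The windows of Il6st, both windows of Il11ra1, the first of Il11 and the second of Lifr held none of the 5 motifs. A match of letters is a description of the sequence and does not show that a factor binds there.

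Each normoxic sample held between 24749601 and 25914892 counts and each hypoxic sample between 25847719 and 31925054, so that the detection floor of 3 counts amounts to 0.0943 to 0.122 CPM. All 10 genes of a list of hypoxia-responsive genes were higher at 1% O2, with log2 fold changes from 1.03 (Ldha, lactate dehydrogenase A) to 5.13 (Car9, carbonic anhydrase 9). The 10 fibroblast and stellate cell markers were all expressed, with a summed level of 18551 to 23498 CPM in normoxia and 18926 to 21431 CPM in hypoxia, and 2 of them were higher (Pdgfra, Pdpn) and 2 lower (Lum, Thy1). Of 12 macrophage and immune cell markers, 8 were lower and 0 higher at 1% O2, and their sum ran from 969 to 1723 CPM in normoxia and from 497 to 890 CPM in hypoxia. Of 8 tumor epithelial markers 3 were tested, and 5 were too low to be tested. Among those tested 1 was higher (Krt19, 0.715 ± 0.297 to 22.1 ± 1.66 CPM, SD, n = 3 each) and 2 were not past the thresholds. Epcam had at most 1 count in any sample, and Krt8, Krt18, Cdh1 and Cldn4 had at most 3 counts in any hypoxic sample. Endothelial markers (5.43 to 10.4 CPM in sum in normoxia and 5.62 to 7.79 in hypoxia) and acinar markers (10.1 to 12.6 and 8.23 to 9.30 CPM) were low in both conditions. The part of other cell types in the values below was not tested. In bulk RNA, fewer cells of a type and less RNA per cell cannot be told apart.

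The PSC samples at 1% O2 held more mRNA of 4 of the 5 ligands, and 2 of the 5 receptor subunits changed by more than 1.5-fold, in opposite directions. Il6, Lif, Il11 and Clcf1 rose, between 1.51-fold and 11.3-fold, while Osm did not pass the test. Among the receptor subunits Osmr rose 1.98-fold, Lifr was 2.01-fold lower, and Il6st, Il6ra and Il11ra1 stayed within the fold threshold. A gene was called when it changed by more than 1.5-fold and edgeR's quasi-likelihood test gave a p under 0.05 after Benjamini-Hochberg adjustment over all tested genes. By this rule 6 of the 10 members were called, in a comparison that called 34.2% of all tested genes. Higher at 1% O2 were 4 of 5 ligands and 1 of 5 receptors, against 18.9% of all genes. Lower were 0 of 5 ligands and 1 of 5 receptors, against 15.3%. Normoxic and hypoxic samples were free of overlap for 9 of the 10 members, all but Osm, and for 68.9% of all genes. With no fold threshold 9 of 10 members passed an adjusted p of 0.05, and 62.7% of all genes did. The median log2 fold change was 1.14 over the ligands, -0.23 over the receptors and -0.00398 over all tested genes.

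**Figure D1:**
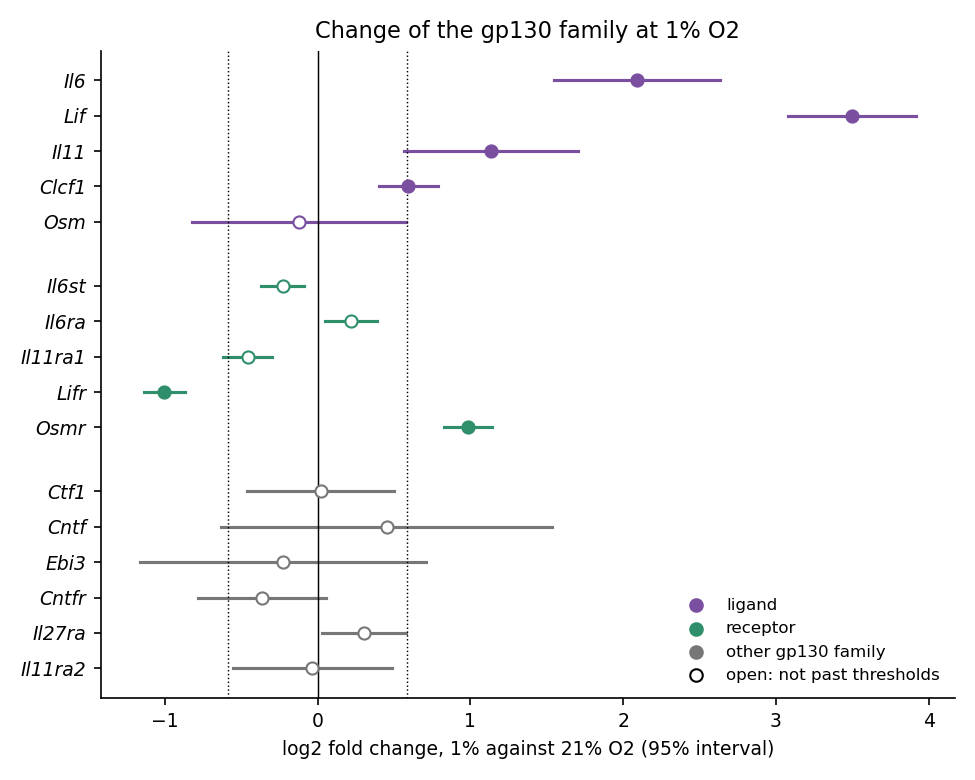
Log2 fold change at 1% against 21% O2 (horizontal axis, points, with 95% intervals as bars) of the 5 ligands, the 5 receptor subunits and 6 other tested genes of the gp130 family. Filled points passed both thresholds and dotted lines mark a 1.5-fold change, with Lif at 3.50, Il6 at 2.09, Osmr at 0.99 and Lifr at -1.0.

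Lif (ENSMUSG00000034394), a cytokine that iCAFs secrete, rose most among the members. Its TMM-normalized level was 8.35, 10.9 and 9.53 CPM in normoxic replicates 1, 2 and 3 and 79.0, 123 and 123 CPM in hypoxic replicates 1, 2 and 3. Every hypoxic sample lay far above every normoxic one, and hypoxic replicate 1 was lower than the other two. The mean of 9.59 ± 1.27 CPM became 108 ± 25.5 CPM (SD over 3 samples). On the log2 scale the change was 3.50, with a standard error of 0.18, a 95% interval of 3.08 to 3.92 and an edgeR adjusted p of 7.05e-07.

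Il6 (ENSMUSG00000025746), the cytokine for which the family is named, had 8.01, 7.78 and 11.1 CPM in normoxia and 26.7, 35.2 and 52.1 CPM in hypoxia. Replicate 3 was the highest sample in both conditions, and the conditions did not overlap. The rise from 8.95 ± 1.84 to 38.0 ± 13 CPM (SD, n = 3 each) was a log2 fold change of 2.09 (standard error 0.24, 95% interval 1.55 to 2.63, edgeR adjusted p = 7.15e-05). The intervals of Il6 and Lif did not overlap, and this difference between the genes was not tested further.

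Il11 (ENSMUSG00000004371), a cytokine tied to fibrosis in several organs, was scarce, with 70, 43 and 34 counts in normoxia and 126, 121 and 121 counts in hypoxia. In normalized units these were 2.69, 1.63 and 1.38 CPM and 4.95, 3.86 and 3.80 CPM. Replicate 1 was the highest in both conditions, and the lowest hypoxic sample still lay above the highest normoxic one. The log2 fold change was 1.14 (standard error 0.25, 95% interval 0.56 to 1.71, edgeR adjusted p = 0.00362).

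Clcf1 (ENSMUSG00000040663), a ligand of the CNTF receptor, had 25.9, 30.7 and 30.6 CPM in normoxia and 43.4, 40.5 and 47.5 CPM in hypoxia. The conditions did not overlap, but its fold change of 1.51 lay just past the threshold (log2 0.59, standard error 0.09, 95% interval 0.40 to 0.79, edgeR adjusted p = 0.0003). The fold fell short of 1.5 with upper-quartile scaling (log2 0.57), with no filter on low counts (0.57), without normoxic replicate 1 (0.51) and without hypoxic replicate 3 (0.53). Clcf1 also shares 311 bases, 8.17% of its exonic sequence, with the gene model AC109138.7 on the same strand, and reads from those bases cannot be assigned with certainty.

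Osm (ENSMUSG00000058755), which is made mainly by myeloid cells, was the lowest of the members, with 21, 39 and 23 counts in normoxia and 21, 39 and 28 counts in hypoxia. Its level was 0.808, 1.48 and 0.933 CPM in normoxia and 0.825, 1.24 and 0.880 CPM in hypoxia, and the conditions overlapped. The log2 fold change was -0.12 (standard error 0.31, edgeR adjusted p = 0.746), with a 95% interval from -0.82 to 0.58, and it was 0.18 without normoxic replicate 2. In both conditions Osm was highest in replicate 2 and lowest in replicate 1, the order also of the summed immune cell markers (969, 1723 and 1350 CPM in normoxia and 497, 890 and 604 CPM in hypoxia), and the part of these cells in the value of Osm was not tested. Of the 12 immune cell markers 8 were lower, 0 higher and 4 not past the thresholds at 1% O2, and the part of immune cells in the values of the other ligands was not tested either.

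**Figure D2:**
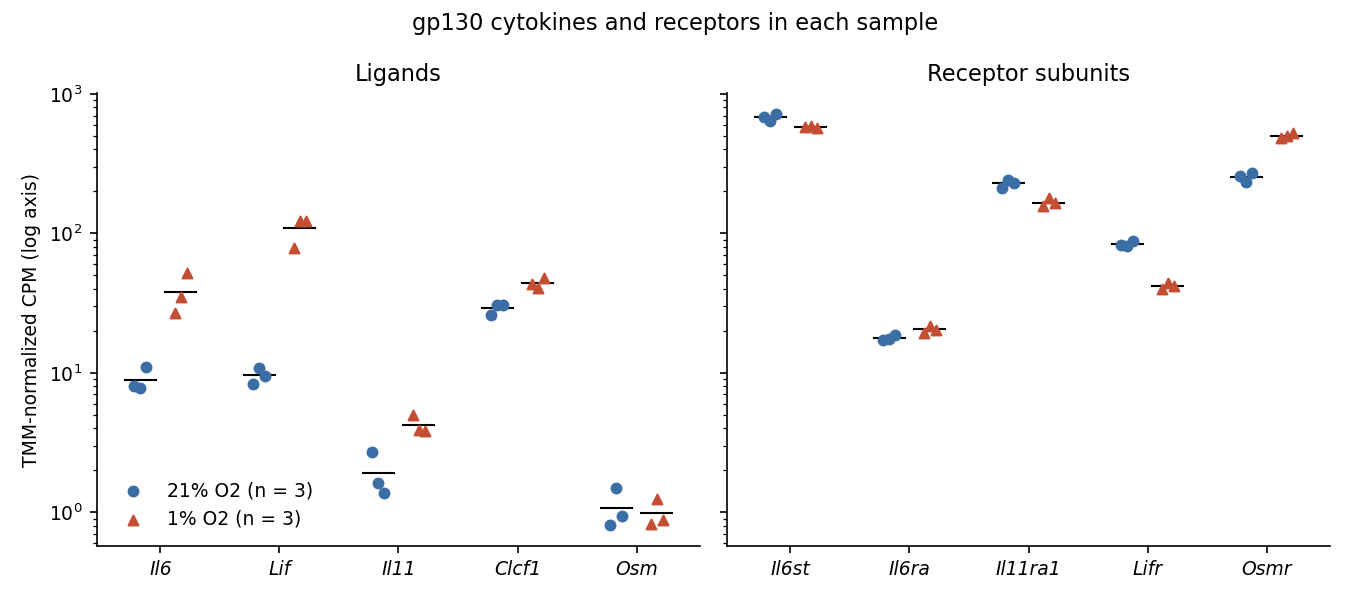
TMM-normalized CPM (logarithmic vertical axis) of each ligand (left) and receptor subunit (right) in the 3 samples at 21% O2 (circles) and the 3 samples at 1% O2 (triangles), with lines at the means. Lif moved from 8.35 to 10.9 CPM up to 79.0 to 123 CPM and Lifr from 81.4 to 87.7 CPM down to 39.7 to 43.8 CPM, whereas the samples overlapped for Osm.

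Il6st (ENSMUSG00000021756), the shared gp130 subunit, had 688, 637 and 718 CPM in normoxia and 581, 589 and 574 CPM in hypoxia. All hypoxic samples lay below all normoxic ones, and they lay closer together, at 581 ± 7.28 against 681 ± 41.1 CPM (SD, n = 3 each). The difference was small, at a log2 fold change of -0.23 (standard error 0.06, 95% interval -0.37 to -0.09, edgeR adjusted p = 0.0103), and did not reach the fold threshold. The interval leaves out a 1.5-fold change in either direction.

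Lifr (ENSMUSG00000054263), the partner of gp130 for LIF and a part of the CLCF1 receptor, fell. It was at 83.2, 81.4 and 87.7 CPM in normoxia and at 39.7, 43.8 and 42.1 CPM in hypoxia. No hypoxic sample came near a normoxic one, and the spread within either condition was narrow (84.1 ± 3.24 and 41.9 ± 2.05 CPM, SD, n = 3 each). The log2 fold change was -1.0 (standard error 0.06, 95% interval -1.14 to -0.87, edgeR adjusted p = 1.25e-06).

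Osmr (ENSMUSG00000022146), the partner of gp130 for OSM, rose by about the amount by which its neighbor Lifr was lowered. It was at 256, 232 and 271 CPM in normoxia and at 483, 497 and 523 CPM in hypoxia. The conditions were well apart, with means of 253 ± 19.7 and 501 ± 20.3 CPM (SD, n = 3 each). The log2 fold change was 0.99 (standard error 0.07, 95% interval 0.83 to 1.14, edgeR adjusted p = 4.06e-06).

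Il11ra1 (ENSMUSG00000073889), the receptor specific for IL11, had 212, 243 and 231 CPM in normoxia and 156, 179 and 165 CPM in hypoxia. Its samples did not overlap, and it was 1.37-fold lower, short of the threshold (log2 -0.46, standard error 0.07, 95% interval -0.62 to -0.30, edgeR adjusted p = 0.00045). Il11ra1 has near copies, Il11ra2 and Gm13305, in which 19.3% and 57.7% of its 31-base words recur, and RSEM divides reads between such genes by an estimate. Il11ra1 received between 93.9% and 95.9% of the counts over all copies in each sample. Summing it with the copies gave a log2 fold change of -0.45 (Il11ra2 only) or -0.44 (all copies, an alternative added after the data were seen).

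Il6ra (ENSMUSG00000027947), the receptor specific for IL6, had 17.1, 17.3 and 18.6 CPM in normoxia and 19.4, 21.7 and 20.4 CPM in hypoxia. The hypoxic samples were all higher, by a log2 fold change of 0.22 (standard error 0.08, 95% interval 0.05 to 0.39, edgeR adjusted p = 0.0311) that did not reach the fold threshold. When replicates were left out in turn the change ran from 0.17 to 0.26, and the adjusted p of edgeR reached 0.121. With all samples kept, the adjusted p was 0.0953 by DESeq2. By edgeR it was 0.0886 with no filter on low counts and 0.0502 with upper-quartile scaling. It stayed under 0.05 by edgeR with RLE scaling or the replicate block and by limma-voom. An antisense gene, Gm42809, shares 242 bases (2.8%) of its exons, and the strand setting of the counting is not given in the sources used here.

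Levels of different genes were compared per kilobase of exon (TMM-normalized CPM divided by the length of the union of exons). In normoxia the order of the ligands was Clcf1 (7.64 ± 0.710 CPM per kb), Il6 (3.69 ± 0.758), Lif (2.21 ± 0.292), Il11 (0.914 ± 0.335) and Osm (0.473 ± 0.157, SD, n = 3 each), and no neighbors in this order overlapped. In hypoxia Lif led with 24.9 ± 5.86 CPM per kb, followed by Il6 (15.7 ± 5.33) and Clcf1 (11.5 ± 0.928), and the samples of Lif and Il6 overlapped, as did those of Il6 and Clcf1. Il11 (2.02 ± 0.310 CPM per kb) and Osm (0.433 ± 0.10) stayed the least abundant, with no overlap between them.

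The ligand pool therefore changed in makeup as well as in size. Summed CPM of the 5 ligands were 45.8 to 53.5 in normoxia and 155 to 228 in hypoxia. Of the summed level per kb, Clcf1 took 51.2 ± 1.68% in normoxia and 21.6 ± 4.11% in hypoxia, while Lif went from 14.8 ± 1.47% to 45.5 ± 4.59% (SD, n = 3 each). The share of Il6 was similar, 24.6 ± 3.88% and 28.2 ± 4.41%, and its samples overlapped. Il11 had 6.27 ± 2.81% and 3.88 ± 1.41%, also overlapping, and Osm 3.16 ± 0.974% and 0.806 ± 0.192%.

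**Figure D3:**
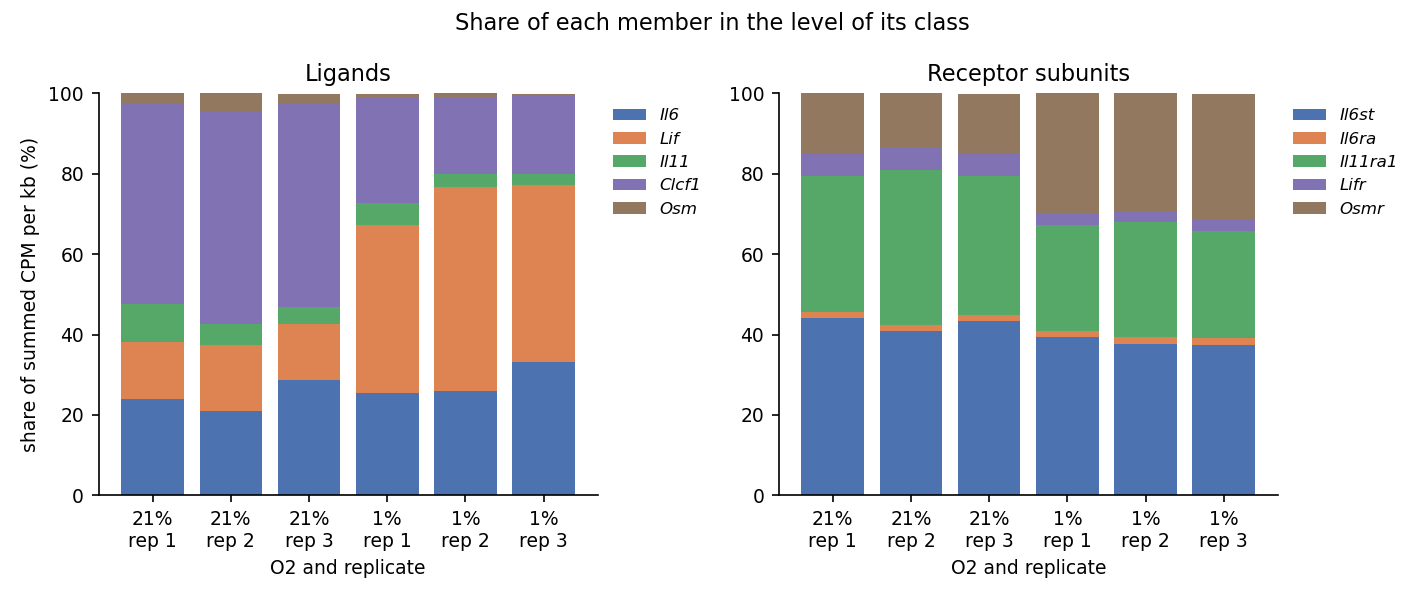
Share (%) of each gene in the summed TMM-normalized CPM per kb of the 5 ligands (left) and of the 5 receptor subunits (right), 1 bar per sample. Lif widened from 13.8 to 16.5% of the ligand level at 21% O2 to 42.0 to 50.7% at 1% O2, and Osmr from 13.6 to 15.1% of the receptor level to 29.2 to 31.3%.

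The summed level of the receptors overlapped between the conditions, at 1210 to 1327 CPM in normoxia and 1279 to 1330 CPM in hypoxia. In normoxia the order per kb was Il6st (61.3 ± 3.71 CPM per kb), Il11ra1 (51.2 ± 3.46), Osmr (20.9 ± 1.62), Lifr (7.81 ± 0.301) and Il6ra (2.05 ± 0.0965, SD, n = 3 each), with no overlap between neighbors. In hypoxia Osmr moved up to 41.4 ± 1.68 CPM per kb, below Il6st at 52.4 ± 0.656 and overlapping with Il11ra1 at 37.2 ± 2.53, while Lifr (3.89 ± 0.190) and Il6ra (2.38 ± 0.133) stayed the lowest. The share of Osmr went from 14.6 ± 0.803% to 30.1 ± 1.06% and that of Lifr from 5.45 ± 0.0629% to 2.83 ± 0.0595% (SD, n = 3 each).

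The order of the 3 most abundant subunits depended on the length used. Osmr has 12.113 kb of exon in all but 5.491 kb in its longest transcript. With the longest transcript as length, Il11ra1 (87.8 CPM per kb) stood above Il6st (78.5) in normoxia with overlapping samples, and Osmr (91.2) stood above Il6st (67.0) and Il11ra1 (63.9) in hypoxia. Under either length Lifr and Il6ra were the lowest in both conditions, and the order of the ligands was the same.

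Ratios of the level per kb of a ligand to that of its own receptor describe how far a ligand moved against its receptor within a sample. They are made from the same values as the fold changes above and are no independent evidence. They compare mRNA and say nothing of the amounts of ligand and receptor protein. For Lif to Lifr the log2 ratio was -2.01, -1.59 and -1.89 in normoxia and 2.3, 2.8 and 2.86 in hypoxia. Below its receptor in all normoxic samples, the ligand was above it in all hypoxic ones, and the geometric mean of the ratio went from 0.281 to 6.29, a 22.4-fold difference. For Il6 to Il6ra the log2 ratio was 0.74, 0.68 and 1.08 in normoxia and 2.29, 2.53 and 3.18 in hypoxia, or 1.78 and 6.35 on the linear scale. Here the mRNA level of the ligand exceeded that of the specific receptor in all 6 samples.

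Il11 remained far below Il11ra1, with ratios of 0.0172 in normoxia and 0.0539 in hypoxia (log2 difference 1.65). Osm to Osmr moved the other way, from 0.0219 to 0.0103 (log2 difference -1.09), with Osmr higher and Osm not called. Clcf1 to Cntfr went from 1.61 to 3.23 (log2 difference 1.01), and in hypoxia its log2 ratio was widely spread, at 2.10, 1.14 and 1.84. Of the specific subunits against gp130, Osmr to Il6st rose from 0.340 to 0.789 (log2 difference 1.21) and Lifr to Il6st went from 0.127 to 0.0742 (log2 difference -0.78). Il6ra to Il6st (log2 difference 0.44) and Il11ra1 to Il6st (-0.23) moved less.

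The differences between conditions do not depend on the length used, but the printed ratios do. With the longest transcript in place of the union of exons, Osmr to Il6st was 0.587 in normoxia and 1.36 in hypoxia, so that Osmr lay above gp130 at 1% O2 with this length and below it with the other. Osm to Osmr was 0.00993 and 0.00467, and Il11 to Il11ra1 was 0.0107 and 0.0336. The ratios of Lif to Lifr (0.272 and 6.09) and of Il6 to Il6ra (1.84 and 6.58) were nearly the same under either length.

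In each of these 9 ratios the hypoxic samples lay entirely to 1 side of the normoxic ones. With 3 samples against 3, a two-sided exact permutation test cannot give a p below 0.1, and each of the 9 ratios gave p = 0.1 by that exact test, before and after Benjamini-Hochberg adjustment over the 9. The ratio of Osmr to Lifr, chosen after its values were seen, was 1.45, 1.34 and 1.46 on the log2 scale in normoxia and 3.43, 3.34 and 3.46 in hypoxia. It moved from 2.67 to 10.6 on the linear scale, or from 5.28 to 21.0 with the longest transcript as length. Its replicates were close together in both conditions, and the difference was about as large without any 1 sample (log2 1.96 to 2.03).

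**Figure D4:**
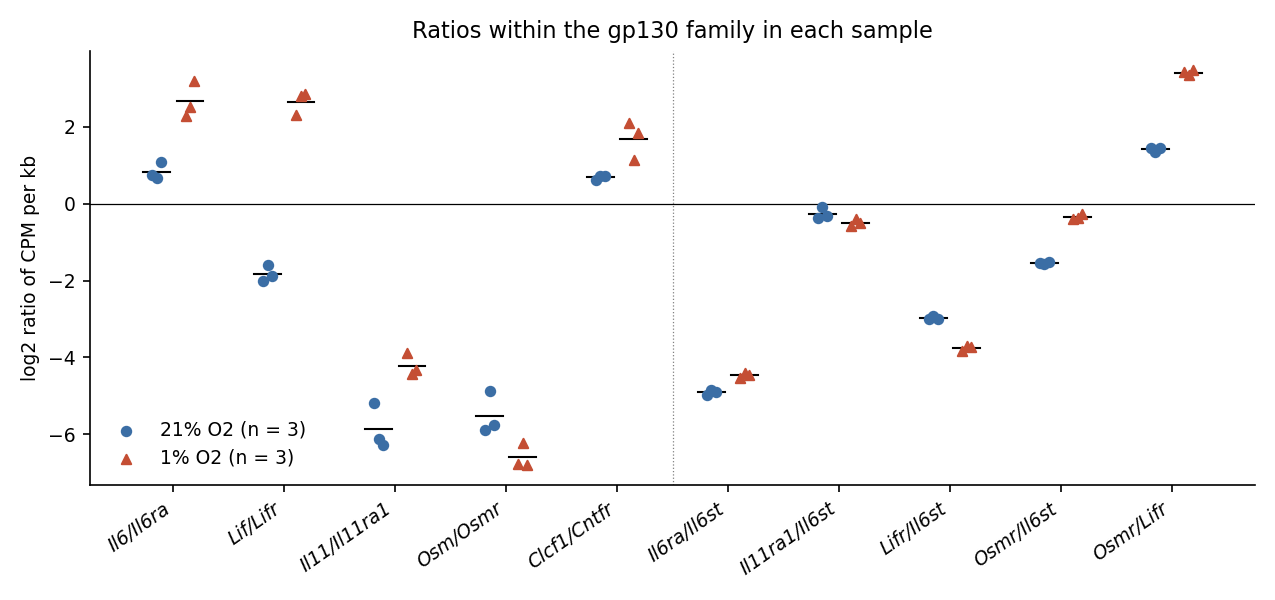
Log2 ratio of TMM-normalized CPM per kb of union exon for ligands to their receptors (left of the dotted line) and for receptor subunits to each other (right), with 1 point per sample (circles 21% O2, triangles 1% O2, n = 3 each) and lines at the means. Lif to Lifr crosses 0, from -1.83 to 2.65 on average, while Il11 to Il11ra1 (-5.86 to -4.21) and Osm to Osmr (-5.51 to -6.60) stay below it.

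Of 10 other genes of the gp130 family 6 were tested, and edgeR, DESeq2 and limma-voom each called 0 of them, while edgeR called 34.2% of all tested genes. In edgeR 1 of the 6 had an unadjusted p under 0.05. Cntfr, the receptor specific for CLCF1 and CNTF, had 12.3, 13.7 and 13.6 CPM in normoxia and 7.38, 13.5 and 9.71 CPM in hypoxia, with overlapping samples (log2 -0.37, edgeR adjusted p = 0.113). It passed both thresholds when hypoxic replicate 2 was left out (log2 -0.62, edgeR adjusted p = 0.00539). Il27ra, the IL27 receptor, had a log2 fold change of 0.30 (edgeR adjusted p = 0.0554). The ligands Ctf1 (0.02), Cntf (0.45) and Ebi3 (-0.23) and the receptor copy Il11ra2 (-0.03) had overlapping samples, and Cntf shares 78.9% of its exonic bases with Zfp91 on the same strand. Il31 was at 0 in all samples, and Ctf2, Il27 and Il31ra were too low to be tested.

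All 14 genes listed for carrying or restraining the signal inside the cell were tested. Of these 4 were higher and 10 not past the thresholds, where 34.2% of all tested genes were called and 18.9% were higher. The median log2 fold change of the list was 0.05, near that of all genes (-0.00398). Jak2, a kinase bound to gp130, rose from 94.2 ± 4.18 to 172 ± 5.43 CPM (log2 0.87, edgeR adjusted p = 2.06e-06), and its relative Tyk2 from 37.5 ± 3.32 to 56.9 ± 0.761 CPM (log2 0.60, edgeR adjusted p = 7e-05, SD, n = 3 each). The fold of Tyk2 fell short of 1.5 with upper-quartile scaling (log2 0.58), with no filter on low counts (0.58) and without normoxic replicate 1 (0.55) or 3 (0.57), which left 3 genes of the list called. Stat3, the main transcription factor of the pathway, had 398, 389 and 388 CPM in normoxia and 623, 608 and 617 CPM in hypoxia (log2 0.65, edgeR adjusted p = 7.74e-06).

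Cish, a feedback inhibitor of cytokine signalling, rose from 4.07 ± 1.14 to 8.24 ± 0.698 CPM (SD, n = 3 each, log2 1.02, edgeR adjusted p = 0.00136). Socs3, the inhibitor that binds gp130 itself, was singled out after its value was seen. It had 108, 109 and 134 CPM in normoxia and 123, 143 and 148 CPM in hypoxia, with overlapping samples (log2 0.24, edgeR adjusted p = 0.0594). Neither protease known to shed IL6 receptor from the cell surface passed the fold threshold. Adam10 went from 136 ± 7.24 to 115 ± 1.63 CPM (log2 -0.23, edgeR adjusted p = 0.00496) and Adam17 from 155 ± 3.73 to 189 ± 6.03 CPM (log2 0.29, edgeR adjusted p = 0.0011, SD, n = 3 each).

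**Figure D5:**
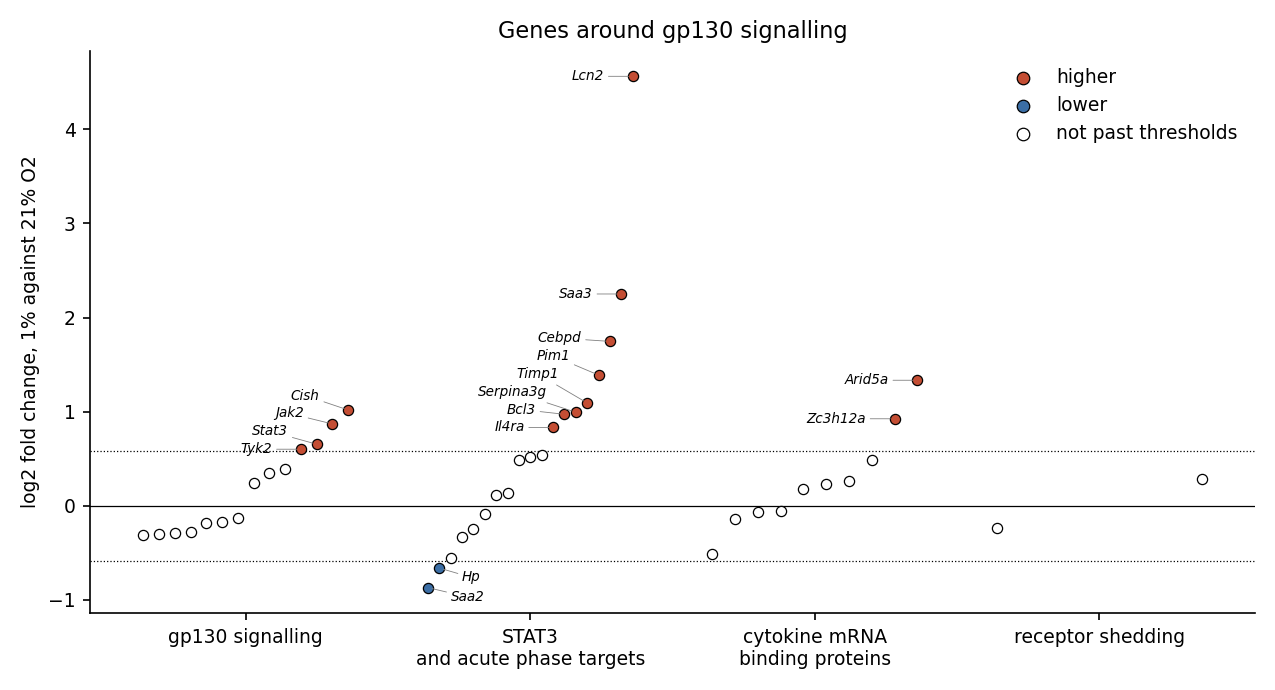
Log2 fold change at 1% against 21% O2 of each tested gene in 4 lists around gp130 signalling, sorted within a list (1 point per gene, dotted lines at a 1.5-fold change, names for genes past both thresholds). The signalling list reaches 1.02 (Cish), and the list of STAT3 and acute phase targets reaches 4.56 (Lcn2).

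Among 22 genes known as STAT3 or acute phase targets, 19 were tested, 8 were higher, 2 lower and 9 not past the thresholds, against 18.9% higher and 15.3% lower among all tested genes. The median log2 fold change of the list was 0.52, against -0.00398 for all genes. Lcn2, the iron-scavenging protein lipocalin 2, had 1.66, 3.57 and 2.47 CPM in normoxia and 45.5, 73.0 and 63.9 CPM in hypoxia (log2 4.56, edgeR adjusted p = 8.22e-07). Saa3, the acute phase protein serum amyloid A3, was abundant already in normoxia and rose from 845 ± 181 to 4020 ± 354 CPM (SD, n = 3 each, log2 2.25, edgeR adjusted p = 2.38e-06). Cebpd, a transcription factor induced by STAT3, rose from 46.4 ± 5.37 to 156 ± 11.4 CPM (SD, n = 3 each, log2 1.75, edgeR adjusted p = 6.38e-07). Il4ra, a receptor subunit for IL4 and IL13, rose the least of those called (log2 0.83).

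Of the 2 genes of this list that were lower, Hp (haptoglobin) fell from 626 ± 150 to 396 ± 15.8 CPM (SD, n = 3 each, log2 -0.66, edgeR adjusted p = 0.00285), and without normoxic replicate 2, its highest sample, the log2 fold change was -0.46 and short of the threshold. Saa2, a close relative of Saa1, was low and had overlapping samples (1.69, 3.83 and 2.64 CPM in normoxia and 1.41, 1.79 and 1.26 CPM in hypoxia). Its log2 fold change of -0.87 passed with an edgeR adjusted p of 0.0323, which was 0.117 without normoxic replicate 2, when the log2 fold change was -0.54. It did not pass either without normoxic replicate 3 or without hypoxic replicates 1 or 3. Orm2 and Fgb, made chiefly by liver, were at 0 in all samples.

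Of 10 genes for proteins that bind cytokine mRNAs and change their stability, 2 were higher, 0 lower and 8 not past the thresholds. Of all tested genes 18.9% were higher, so the count of this list was near the background. Arid5a, which is known to stabilize Il6 mRNA, had 8.62, 7.89 and 8.28 CPM in normoxia and 20.6, 21.4 and 20.5 CPM in hypoxia (log2 1.33, edgeR adjusted p = 1.33e-06). Zc3h12a, which encodes the RNase regnase-1 that degrades Il6 mRNA, had 70.2, 102 and 87.6 CPM in normoxia and 154, 159 and 179 CPM in hypoxia (log2 0.92, edgeR adjusted p = 0.000162). The 4 lists were chosen with earlier results of these data known, and they say nothing of protein or of phosphorylation, which were not measured in these samples.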

How the data were processed

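Gene expression of PSCs cocultured with mT3 was compared between 3 normoxic (21% O2) and 3 hypoxic (1% O2) samples, grouped by the treatment given in the labels. The authors made poly(A) libraries, trimmed reads with Cutadapt, mapped them to GRCm38 with STAR (version 2.6.1b) and counted genes with RSEM (version 1.3.1), per the labels and the methods of the study. The authors deposited RSEM's expected counts per gene, not normalized between samples, and 0 of these had a fraction. The annotation release and the strand setting are not given in the sources used here. Of the 55426 features, 5 were transgene features, which held 0 counts and were left out. Names and coordinates came from GENCODE M21 on GRCm38, which matched 55240 identifiers and left 181 unmatched. Totals ran from 24749601 to 31925054 counts, and floors of 3 counts cover counting error only, since the reads carry no molecular identifiers. Replicates of a condition differed by more than sampling noise (chi-square of 5.68 to 22.5 per degree of freedom).

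edgeR 4.0.16 (limma 3.58.1, R 4.3.3) was run with filterByExpr (minimum count 10), TMM scaling, the quasi-likelihood F test on condition alone and Benjamini-Hochberg adjustment over 16207 genes, and was tested on simulated data. Genes were called at a fold change beyond 1.5 and an adjusted p under 0.05. CPM are counts relative to the TMM-scaled library size. Ratios were compared with an exact two-sided permutation test. The members, gene lists and motifs were chosen with earlier results of these data known. Named were all members, all tested genes of the lists of other family members and of receptor sheddases, and from the remaining 3 lists the 3 called genes that rose most and the 3 that rose least or fell most. Some genes are not reported here, and the lists were counted without them. Socs3 and the markers named were chosen after their values were seen. Alternatives were other scalings (RLE, upper quartile), no filter, DESeq2 1.42.0, limma-voom, the replicate number as a block, each sample left out, other fold thresholds, the longest transcript as length and summed copies of Il11ra1. Promoters were those of RefSeq (GRCm38.p6), and figures were drawn with matplotlib 3.10.9.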

Additional observations from a re-analysis of the deposited data

How the results depend on the processing

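Over 122 alternative values of the members' log2 fold changes, 117 kept direction and call, 4 (all of Clcf1) kept direction and lost the call, and 1 changed sign. With no fold threshold 10168 genes passed, and with a threshold of 2, 3156, against 5547. Leaving out 1 sample gave 5226 to 5662 genes and 5 to 6 members called, and the other settings 4 to 9 members. With the longest transcript as length, 2 receptors changed rank in normoxia and 2 in hypoxia. Signs changed only for genes that were not called. Osm ran from -0.34 to 0.18 with samples left out, Ctf1 from -0.12 to 0.12 (-0.0045 with upper-quartile scaling and -0.0037 with no filter), Cntf from -0.084 to 0.73, Ebi3 from -0.65 to 0.20 and Il11ra2 from -0.19 to 0.12. Deviations of samples with the same replicate number correlated at 0.0978, 0.11 and 0.0284 across genes, and 6 of 6 samples correlated best with their own number. The sources used here do not say whether equal numbers mark pairs, and the main fit did not pair them. With the number as a block, 5572 genes were called, 5467 of them shared with the fit without it, and the call of 10 of 10 members was the same. All ratios kept their sign with each sample left out, while another length or scaling, or the block, cancels in these differences and could not change them. Their printed levels moved with the length, most for Osm to Osmr (2.21 times). Upper-quartile scaling moved the median log2 fold change of all genes to -0.03. The causes of these changes were not tested. Osm had 21 to 39 counts in a sample.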
